A study of Mus musculus with 9 samples.

Results

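Etv5, Etv4, Bcl6b, Egr2, Egr4, Mycn, Myc and Pou3f1 encode transcription factors reported to act downstream of the growth factors GDNF or FGF in mouse spermatogonia, and Cxcr4 encodes a chemokine receptor reported downstream of the same signal. These 9 genes were taken by symbol from a table of 23813 entries, and each symbol had 1 entry. Their levels were read in libraries of male germ cells sorted from testes of postnatal day 6 pups of LT-11B6, a C57BL/6 line with an Id4-eGfp transgene. TSPAN8-high (3 libraries) was the most strongly stained portion of the ID4-EGFP+ cells after antibody labelling of the tetraspanin TSPAN8, TSPAN8-low (3 libraries) was the most weakly stained portion, and all ID4-EGFP+ (3 libraries) was the unfractionated population. All 9 libraries therefore come from cells defined by 1 transgenic reporter, and cells of intermediate staining are in neither fraction. Per the labels the 3 libraries of a group are replicate preparations. No source used here says whether preparations of different groups shared cells or whether replicates differed in litter, and p-values cover only the spread among these libraries.

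GDNF (glial cell line-derived neurotrophic factor) is made by somatic cells of the testis and binds a receptor of GFRA1 and RET on undifferentiated spermatogonia, the germ cells that include the stem cells. In cultures of these cells the receptor signals through Src-family kinases, PI3 kinase and AKT, and the RAS and ERK cascade, and GDNF withdrawal lowers a set of transcription factor transcripts. FGF2 acts through FGF receptors on the same ERK cascade. ETV5 loss in mice leads to loss of the spermatogonial stem cells after the first waves of spermatogenesis.

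Values are FPKM, fragments scaled by transcript length and by library, so that levels can be set side by side between genes. Absolute depth is unknown. Depth relative to replicate 1 of all ID4-EGFP+ was read from the most common ratio of low values between libraries. It ran from 1.01 to 1.04 in TSPAN8-high, from 0.855 to 0.944 in TSPAN8-low and from 0.914 to 1.03 in all ID4-EGFP+. The fractions did not overlap in it, so values near the floor were read at lower depth in TSPAN8-low. Between 10734 and 11155 entries per library reached 1 FPKM. Across the tested genes, pairs of libraries had Pearson's r of 0.981 to 0.991 within groups and 0.966 to 0.991 between groups. The sorted protein's own transcript, Tspan8, averaged 34.0 ± 8.41 FPKM in TSPAN8-high and 9.73 ± 2.71 FPKM in TSPAN8-low, and Id4 averaged 67.2 ± 7.17 and 26.2 ± 8.14 FPKM in the same fractions (SD, n = 3 each). The germ cell markers Ddx4 and Dazl stood at 591 ± 58.4 and 1491 ± 202 FPKM in TSPAN8-high and at 404 ± 58.1 and 1573 ± 247 FPKM in TSPAN8-low (SD, n = 3). The material is bulk RNA, in which fewer cells of a type and less RNA per cell cannot be told apart.

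Promoter sequences were at hand for 5 of the 9 genes, Etv5, Egr2, Cxcr4, Egr4 and Mycn, in 10 windows from 250 bases before to 50 bases after a RefSeq start site (GRCm38.p6, a later build than that of the expression values). Printed here, 5′ to 3′, are 4 of them, which belong to 3 genes that passed the test between the fractions and to 1 that did not, and capitals mark the matches to the motifs searched. The Etv5 window at the more upstream of its 2 start sites is chr16:22439521-22439820 on the minus strand, the Egr2 window at the third of its 5 start sites is chr10:67537619-67537918 on the plus strand, the Cxcr4 window is chr1:128592250-128592549 on the minus strand, and the Egr4 window is chr6:85513540-85513839 on the minus strand.
Etv5: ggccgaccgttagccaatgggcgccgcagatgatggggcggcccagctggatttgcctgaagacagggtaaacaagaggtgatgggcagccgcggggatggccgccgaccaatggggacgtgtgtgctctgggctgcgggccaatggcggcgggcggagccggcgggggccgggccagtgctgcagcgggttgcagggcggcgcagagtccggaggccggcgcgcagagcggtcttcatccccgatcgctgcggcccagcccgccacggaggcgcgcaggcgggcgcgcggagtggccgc
Egr2: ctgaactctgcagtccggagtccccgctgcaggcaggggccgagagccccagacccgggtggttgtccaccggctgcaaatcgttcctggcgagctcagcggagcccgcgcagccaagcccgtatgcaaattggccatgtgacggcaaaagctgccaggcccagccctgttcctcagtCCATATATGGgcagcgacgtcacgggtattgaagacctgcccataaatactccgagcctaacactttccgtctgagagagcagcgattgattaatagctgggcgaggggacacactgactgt
Cxcr4: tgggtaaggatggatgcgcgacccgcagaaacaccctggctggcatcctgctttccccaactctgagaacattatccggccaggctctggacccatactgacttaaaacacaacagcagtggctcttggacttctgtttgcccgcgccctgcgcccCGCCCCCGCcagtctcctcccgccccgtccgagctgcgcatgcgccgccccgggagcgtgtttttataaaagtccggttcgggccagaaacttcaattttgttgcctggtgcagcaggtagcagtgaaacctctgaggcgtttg
Egr4: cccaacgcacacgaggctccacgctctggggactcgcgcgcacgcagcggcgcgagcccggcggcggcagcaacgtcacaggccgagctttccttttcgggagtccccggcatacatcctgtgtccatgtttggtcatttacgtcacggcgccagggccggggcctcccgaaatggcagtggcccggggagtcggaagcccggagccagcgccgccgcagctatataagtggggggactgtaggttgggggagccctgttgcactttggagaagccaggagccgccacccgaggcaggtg

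Both strands were searched for CCGGAAGT, a form of the ETS site, CACGTG, the E-box bound by MYC proteins, TGACGTCA, the cyclic AMP response element, the CArG box bound by SRF, and GCGTGGGCG and GCGGGGGCG, forms of the EGR site. The CArG box CCATATATGG began 72 bases before the Egr2 start site of the printed window, and it lay also in 2 further Egr2 windows that overlap this one. A window at another Egr2 start site held the CArG box CCTTTTTTGG, and the most upstream one held CACGTG. In the Cxcr4 window an EGR form was read on the opposite strand as CGCCCCCGC, beginning 94 bases before the start site. Neither Etv5 window, nor the Egr4 or Mycn window, held any of these letters. Of 32851 promoter windows of the same length, 3.89% held CCGGAAGT, 7.15% CACGTG, 1.79% TGACGTCA, 1.63% a CArG box, 0.612% GCGTGGGCG and 2.91% GCGGGGGCG. These matches are descriptions of the letters in these windows.

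Between the fractions 4 of the 9 genes passed the test, all of them higher in TSPAN8-high. Etv5, Egr2, Bcl6b and Cxcr4 rose in TSPAN8-high relative to TSPAN8-low by 1.83-fold to 2.55-fold in mean FPKM. Egr4, Mycn and Pou3f1 did not pass the test, Etv4 passed it only when the replicate number was a block in the fit, and Myc was under the level needed for testing. Genes were tested with limma on log2(FPKM + 1) when at least 3 of the 9 libraries had at least 1 FPKM, and the threshold was an adjusted p of 0.05 (Benjamini-Hochberg, over all 11142 genes tested). Of the 8 members tested, each of which had over 1 FPKM in all 9 libraries, 4 were higher and 0 lower, where 3.41% of all tested genes were higher and 2.15% lower. With the block 5 of the 8 were higher and 0 lower, against backgrounds of 11.8% and 7.34%. The members' median log2 fold change was 0.69, and that of all tested genes 0.05. The libraries of the fractions did not overlap for 5 members that were higher in TSPAN8-high and for 1 that was lower, against 15.9% and 9.71% of all tested genes. For these 6 and for Myc an exact permutation test, two-sided, gave p = 0.1, the smallest value that 3 libraries against 3 allow. The members were chosen with earlier results of these data known. The shares and medians set beside those of all tested genes are therefore descriptions and no test of an excess.

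**Figure D1:**
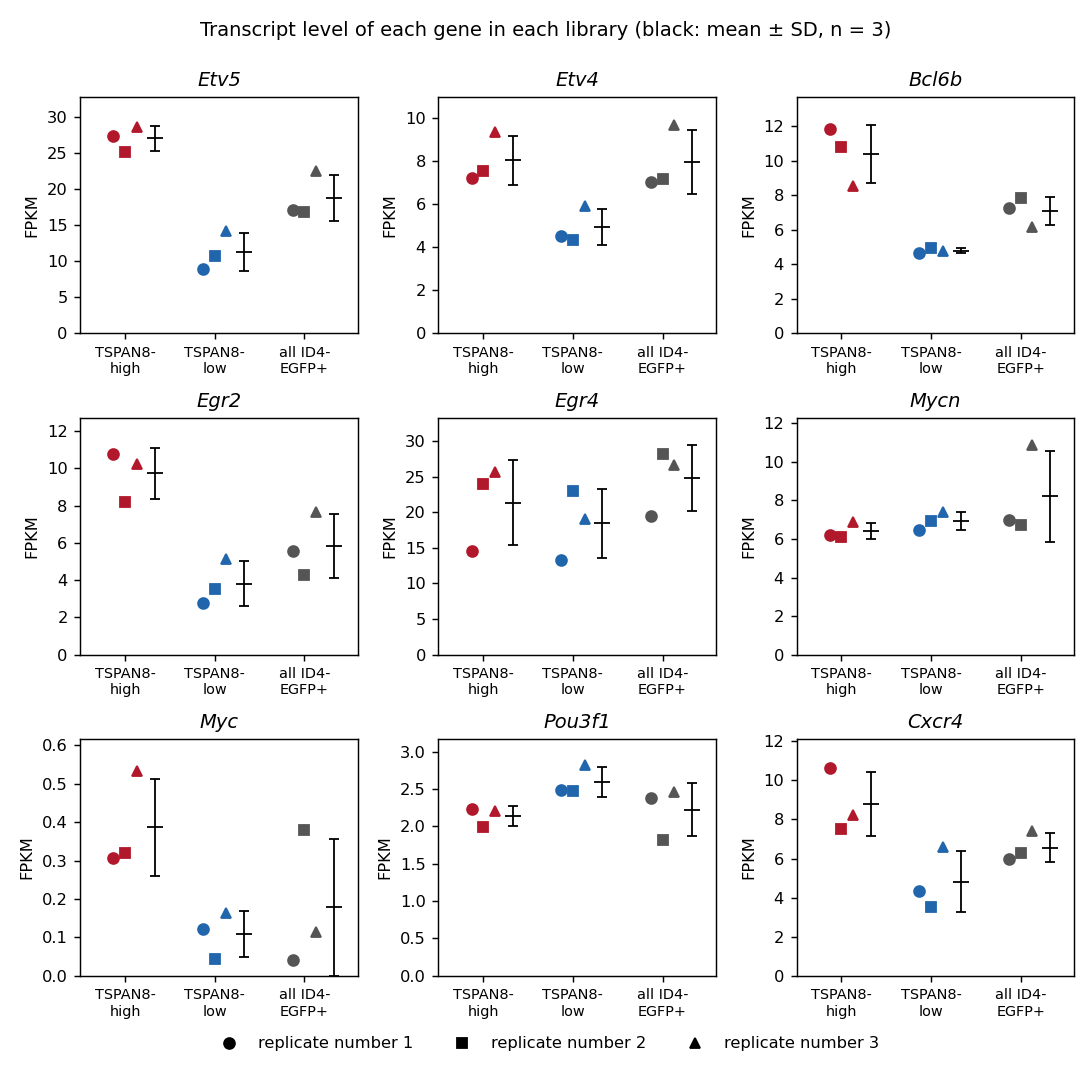
FPKM (linear axes from 0) of each of the 9 genes in TSPAN8-high, TSPAN8-low and all ID4-EGFP+, with 1 point per library, marker shape for the replicate number and black bars for the mean ± SD (n = 3). In Etv5, Egr2, Bcl6b, Cxcr4 and Etv4 every TSPAN8-high point lies above every TSPAN8-low point, while the points of Egr4 and Mycn overlap.

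Etv5 encodes an ETS factor of the PEA3 group and had the largest log2 fold change among the members in this contrast. It stood at 27.5, 25.2 and 28.6 FPKM in TSPAN8-high, at 9.00, 10.7 and 14.3 FPKM in TSPAN8-low and at 17.1, 16.8 and 22.5 FPKM in all ID4-EGFP+ (replicates 1, 2 and 3). None of the 3 sets of values overlapped another, with all ID4-EGFP+ between the fractions. The ratio of means, TSPAN8-high over TSPAN8-low, was 2.39 (log2 fold change 1.21, SE 0.18, adjusted p = 0.00500). The call was held without each of the 9 libraries in turn and was lost without replicate 2 of all 3 groups, which leaves 2 libraries per group (adjusted p = 0.0841).

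Etv4, the closest relative of Etv5 among the members, was less abundant. Its levels were 7.24, 7.53 and 9.37 FPKM in TSPAN8-high, 4.54, 4.36 and 5.91 FPKM in TSPAN8-low and 7.03, 7.17 and 9.71 FPKM in all ID4-EGFP+. TSPAN8-low was the low group here, and TSPAN8-high overlapped all ID4-EGFP+ nearly throughout. The difference between the fractions was 0.61 on the log2 scale (SE 0.17), with adjusted p = 0.0599 and, with the replicate block, 0.00456. Etv1, the third gene of the PEA3 group, was under 0.1 FPKM on average in both fractions (0.0604 ± 0.0635 and 0.0478 ± 0.0522 FPKM). In each library Etv5 exceeded Etv4, by 3.79, 3.34 and 3.06 times in TSPAN8-high, by 1.98, 2.46 and 2.41 times in TSPAN8-low and by 2.44, 2.34 and 2.32 times in all ID4-EGFP+. This ratio was computed after the values had been seen and is given without a test.

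Bcl6b encodes a zinc finger repressor that GDNF maintains in cultured spermatogonia. It measured 11.8, 10.8 and 8.52 FPKM in TSPAN8-high, 4.66, 4.94 and 4.80 FPKM in TSPAN8-low and 7.26, 7.83 and 6.19 FPKM in all ID4-EGFP+. The TSPAN8-low libraries lay close together, and the 3 groups did not overlap. Bcl6b was 2.16 times as high in TSPAN8-high as in TSPAN8-low (log2 fold change 0.96, SE 0.15, adjusted p = 0.00704), a call lost without replicate 2 of all groups (adjusted p = 0.119) and held without any single library. Its relative Bcl6, a repressor best known from germinal centre B cells, was under the level for testing at 0.474 ± 0.0162 and 0.489 ± 0.152 FPKM in the same fractions.

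Egr2 and Egr4 encode zinc finger factors of the immediate-early EGR group, and Egr2 passed the test while Egr4 did not. Whether their differences were unequal was not tested. Egr2 had 10.8, 8.18 and 10.3 FPKM in TSPAN8-high, 2.80, 3.52 and 5.12 FPKM in TSPAN8-low and 5.59, 4.26 and 7.68 FPKM in all ID4-EGFP+. Every TSPAN8-high library was above all others, and the remaining groups overlapped. Its ratio of 2.55 between the fractions was the largest among the tested members (log2 fold change 1.18, SE 0.22, adjusted p = 0.0114). The Egr2 call was held without each single library. It was lost without replicate 1 (adjusted p = 0.0702) or replicate 2 (0.0938) of all groups and without a filter on low values (0.0878).

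Egr4 was the more abundant of the pair in every library. It stood at 14.6, 24.0 and 25.6 FPKM in TSPAN8-high, at 13.3, 23.0 and 19.1 FPKM in TSPAN8-low and at 19.5, 28.2 and 26.6 FPKM in all ID4-EGFP+. Replicate 1 was the lowest in each group, and the groups overlapped. The difference between the fractions was 0.19 (SE 0.24, adjusted p = 0.681), although TSPAN8-high was above TSPAN8-low at each of the 3 replicate numbers, and with the replicate block it was the same with SE 0.12 (adjusted p = 0.267). Egr4 exceeded Egr2 by 1.35 to 2.93 times in TSPAN8-high, by 3.72 to 6.53 times in TSPAN8-low and by 3.47 to 6.62 times in all ID4-EGFP+.

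Of the other EGR genes, Egr1 averaged 21.4 ± 6.12 FPKM in TSPAN8-high and 17.7 ± 2.00 FPKM in TSPAN8-low (log2 fold change 0.23, adjusted p = 0.602). Egr3 was at most 0.109 FPKM in TSPAN8-high and listed at 0 in all TSPAN8-low libraries. EGR genes respond to handling of cells. Of 11 tested members of a list of other immediate-early genes 2 rose and 0 fell in TSPAN8-high (6 and 0 with the block). Over all tested genes 3.41% rose and 2.15% fell (11.8% and 7.34% with the block). Klf6, for a zinc finger factor, had a log2 fold change of 0.97 (adjusted p = 0.00578, lost without replicate 2 or 3 of all groups at 0.0841 and 0.0606) and the AP-1 gene Junb one of 0.69 (adjusted p = 0.0411). Leaving out any of the 6 libraries of the fractions ended the Junb call (adjusted p up to 0.134), as did the 3 other scalings (0.0604 to 0.0867). Dusp1, a stress-induced phosphatase gene, had 0.46 (adjusted p = 0.0807) and Ier2 0.82 (0.0843), and both passed with the block. The summed level of the 17 genes of this list was 125 to 154 FPKM in TSPAN8-high, 81.5 to 109 FPKM in TSPAN8-low and 106 to 124 FPKM in all ID4-EGFP+. Its part in the Egr2 difference was not tested.

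Mycn and Myc encode related basic helix-loop-helix factors that drive growth and metabolism, and Mycn was the main transcript of this pair. Mycn had 6.22, 6.10 and 6.88 FPKM in TSPAN8-high, 6.46, 6.93 and 7.39 FPKM in TSPAN8-low and 6.98, 6.74 and 10.9 FPKM in all ID4-EGFP+. The fractions overlapped and replicate 3 of all ID4-EGFP+ was the highest of the 9. The log2 fold change between the fractions was -0.10 (SE 0.17, adjusted p = 0.781). Myc stayed below the level for testing at 0.307, 0.319 and 0.533 FPKM in TSPAN8-high, 0.121, 0.0437 and 0.163 FPKM in TSPAN8-low and 0.0413, 0.380 and 0.113 FPKM in all ID4-EGFP+. Myc values were apart in the 2 fractions, at levels near the floor of the table, and both overlapped with those of all ID4-EGFP+.

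Of 8 tested genes of the wider MYC network, which holds MYC proteins, their partner MAX and their antagonists, 0 rose and 1 fell. Over all tested genes 3.41% rose and 2.15% fell. Mxd4, for a repressor that competes for MAX, averaged 25.8 ± 2.93 FPKM in TSPAN8-high and 39.6 ± 3.44 FPKM in TSPAN8-low (log2 fold change -0.60, SE 0.16, adjusted p = 0.0449). Leaving out replicate 3 of all ID4-EGFP+, or any of the 6 libraries of the fractions, ended that call (adjusted p up to 0.193). Mycl1 had -0.30 (adjusted p = 0.420), Max -0.26 (0.703) and Mxi1 -0.12 (0.654).

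Pou3f1 encodes a POU-domain factor also known as OCT6, which GDNF raises in cultured germline stem cells. It was low, at 2.23, 1.99 and 2.20 FPKM in TSPAN8-high, 2.49, 2.47 and 2.83 FPKM in TSPAN8-low and 2.39, 1.82 and 2.47 FPKM in all ID4-EGFP+. All TSPAN8-low libraries were above all TSPAN8-high ones, the opposite order to Etv5. The difference, -0.19 on the log2 scale (SE 0.14), did not pass (adjusted p = 0.437, and 0.304 with the replicate block). Pou3f2, Pou3f3 and Pou3f4 averaged at most 0.177 FPKM in either fraction.

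Cxcr4 encodes the receptor of CXCL12, a chemokine that Sertoli cells secrete and that helps to hold spermatogonia in the niche. It had 10.6, 7.52 and 8.22 FPKM in TSPAN8-high, 4.35, 3.52 and 6.57 FPKM in TSPAN8-low and 5.97, 6.30 and 7.41 FPKM in all ID4-EGFP+. Every TSPAN8-high library was above the others, by little in the case of replicate 2. Cxcr4 rose 1.83-fold in TSPAN8-high (log2 fold change 0.77, SE 0.20, adjusted p = 0.0440, and 0.00824 with the replicate block). This call was the least stable of the 4: it was lost without any 1 of 8 libraries, TSPAN8-low replicate 3 being the exception, with adjusted p of 0.0536 to 0.137, and under each of the 3 other scalings (0.0668 to 0.0702).

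Around Cxcr4, its ligand gene Cxcl12 averaged 1.98 ± 1.48 FPKM in TSPAN8-high and 2.96 ± 1.08 FPKM in TSPAN8-low (log2 fold change -0.52, adjusted p = 0.391). Cxcr7, for a second CXCL12 receptor, was under the level for testing at 0.455 ± 0.136 and 0.866 ± 0.354 FPKM. Leukocytes and endothelial cells also express Cxcr4. Ptprc, the pan-leukocyte marker CD45, was at 0.138 ± 0.0358 FPKM in TSPAN8-high and 0.0170 ± 0.0295 FPKM in TSPAN8-low, and Cdh5, an endothelial cadherin, at 0.162 ± 0.0253 and 0.181 ± 0.136 FPKM. Other endothelial markers went both ways: Kdr (means 0.291 and 0.0918 FPKM), Pecam1 and Tek were higher in TSPAN8-high, Emcn and Tie1 lower. Of other leukocyte markers, Cd68, Laptm5 (0.363 and 0.0146), Emr1 (0.347 and 0) and Csf1r (0.126 and 0) were higher and Cd14 (1.64 and 2.26) lower. Laptm5, Emr1 and Csf1r were at 0 in replicate 1 of TSPAN8-high. Summed over 6 genes each, leukocyte markers ran from 13.8 to 16.7 FPKM in TSPAN8-high and from 6.53 to 15.9 FPKM in TSPAN8-low, most of it from Cd68, and endothelial markers from 1.27 to 1.71 and from 0.925 to 1.26 FPKM.

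The summed level of Sertoli cell markers differed along the same contrast. The 11 Sertoli markers found in the table summed to 169, 221 and 363 FPKM in TSPAN8-high, 75.0, 126 and 230 FPKM in TSPAN8-low and 97.3, 154 and 198 FPKM in all ID4-EGFP+, so TSPAN8-high was the highest at each replicate number. Ctsl gave the largest part of the sum, at 135 ± 34 FPKM in TSPAN8-high and 96.6 ± 23.8 FPKM in TSPAN8-low. Of the 5 markers tested, 0 passed without the block and 5 rose with it, at a median log2 fold change of 1.81. With the block 11.8% of all tested genes rose. Cst9, Clu and Cst12 averaged 37.8 ± 15.55, 34.6 ± 22.6 and 25.9 ± 16.3 FPKM in TSPAN8-high. In TSPAN8-low they averaged 16.1 ± 22.1, 12.5 ± 16.6 and 9.88 ± 12.4 FPKM, with overlap between the fractions. The defining markers Sox9 and Amh were near 0, at 0.103 ± 0.0846 and 0.381 ± 0.295 FPKM in TSPAN8-high and 0.0911 ± 0.0499 and 0.0471 ± 0.0533 FPKM in TSPAN8-low. Amh was higher in TSPAN8-high without overlap. Leydig markers (7 genes) summed to at most 1.87 FPKM in TSPAN8-high and 6.81 FPKM in TSPAN8-low, and peritubular myoid markers (5 genes) to at most 7.63 and 3.73 FPKM. The part of these cells in the members' differences was not tested.

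Against the unfractionated cells 0 of the 8 members passed in either direction without the block. The members' median log2 fold change was 0.19 for TSPAN8-high and -0.45 for TSPAN8-low, and that of all tested genes -0.01 and -0.07. Both comparisons share the 3 all ID4-EGFP+ libraries and are given side by side. Relative to all ID4-EGFP+, Etv5 had a log2 fold change of 0.51 in TSPAN8-high (SE 0.18, adjusted p = 0.339) and -0.70 in TSPAN8-low (SE 0.18, adjusted p = 0.600). The same 2 values were 0.67 and -0.51 for Egr2, 0.49 and -0.48 for Bcl6b, and 0.37 and -0.41 for Cxcr4. For these 4 genes the estimates lay on opposite sides of all ID4-EGFP+. Etv4 had 0.02 in TSPAN8-high and -0.59 in TSPAN8-low, Egr4 -0.23 and -0.42, Mycn -0.29 and -0.19, and Pou3f1 -0.03 and 0.16.

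In TSPAN8-high against all ID4-EGFP+, 0.0269% of all tested genes were called higher, and an unadjusted p under 0.05 was reached by 3 of the 8 members and by 9.74% of all tested genes (both directions). Egr2 passed with the replicate block (adjusted p = 0.0417), where 1.23% of all tested genes were higher, and Etv5 had adjusted p = 0.0503. The TSPAN8-high libraries did not overlap with all ID4-EGFP+ for 4 members, Etv5, Egr2, Bcl6b and Cxcr4, each of them higher, against 6.79% of all tested genes. In TSPAN8-low against all ID4-EGFP+, 0% of all tested genes were called lower, 0.0359% with the block, and 0 members passed in either fit. There 4 of the 8 members had an unadjusted p under 0.05, as had 8.17% of all tested genes in both directions. The 3 members Etv5, Etv4 and Bcl6b were lower without overlap against 10.8% of all tested genes, while Pou3f1 was higher without overlap against 3.44%. For Pou3f1 this was a near tie, with 2.472 FPKM in the lowest TSPAN8-low library and 2.466 FPKM in the highest of all ID4-EGFP+.

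**Figure D2:**
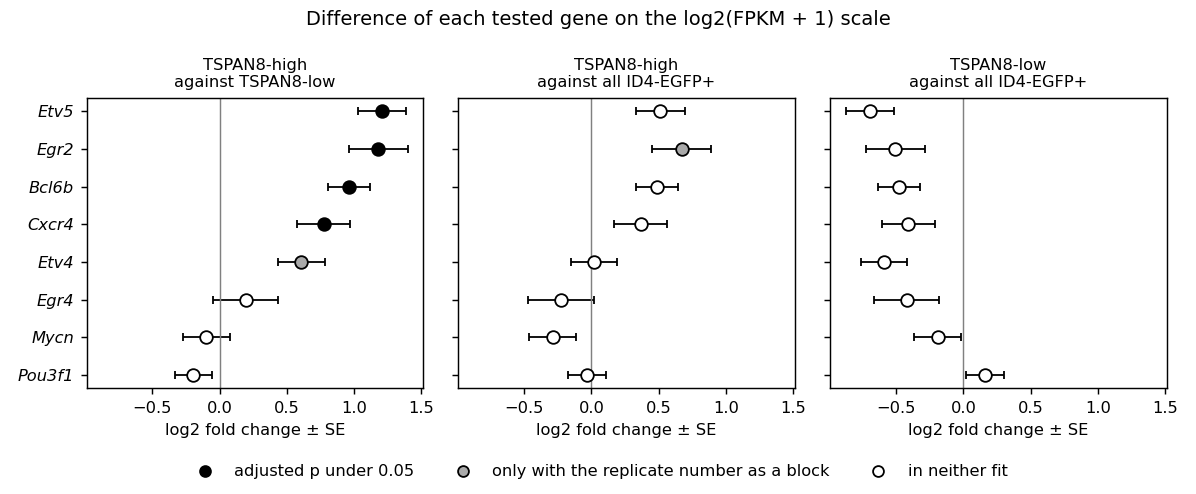
Log2 fold change ± SE of the 8 tested members in the 3 comparisons, on the log2(FPKM + 1) scale. Filled points (Etv5, Egr2, Bcl6b and Cxcr4, left panel) had an adjusted p under 0.05, and grey points (Etv4 on the left, Egr2 in the middle) did so only with the replicate number as a block.

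The order of the members by mean FPKM differed between the groups. In TSPAN8-high it was Etv5 (27.1 ± 1.75), Egr4 (21.4 ± 5.97), Bcl6b (10.4 ± 1.69), Egr2 (9.74 ± 1.38), Cxcr4 (8.79 ± 1.63), Etv4 (8.05 ± 1.15), Mycn (6.40 ± 0.417), Pou3f1 (2.14 ± 0.131) and Myc (0.386 ± 0.127), as FPKM with SD and n = 3. In TSPAN8-low Egr4 led with 18.5 ± 4.85 FPKM, Etv5 followed with 11.3 ± 2.68 FPKM and Mycn came next with 6.93 ± 0.465 FPKM, ahead of Etv4 (4.94 ± 0.843), Cxcr4 (4.81 ± 1.58), Bcl6b (4.80 ± 0.144) and Egr2 (3.81 ± 1.19). In all ID4-EGFP+ the same first 3 were Egr4 at 24.8 ± 4.62, Etv5 at 18.8 ± 3.19 and Mycn at 8.21 ± 2.34 FPKM. Among Bcl6b, Egr2, Cxcr4, Etv4 and Mycn, neighbours in the order had overlapping ranges in each group, except Etv4 and Mycn in both fractions. The ranges of Egr4 and Etv5 overlapped in all 3 groups. Compared within each library, Etv5 exceeded Egr4 throughout TSPAN8-high, and Egr4 exceeded Etv5 throughout TSPAN8-low and all ID4-EGFP+. This order was read after the values had been seen and was not tested.

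Upstream of these factors, the genes for both subunits of the GDNF receptor rose in TSPAN8-high, and most genes for transducers did not pass. Of 8 tested genes for GDNF and FGF ligands and receptors, 3 rose and 0 fell in TSPAN8-high (3 and 2 with the block). The shares over all tested genes were 3.41% and 2.15% (11.8% and 7.34% with the block). Gfra1, for the GDNF-binding subunit, had 19.2, 17.7 and 17.7 FPKM in TSPAN8-high and 4.30, 7.08 and 8.93 FPKM in TSPAN8-low (log2 fold change 1.35, SE 0.20, adjusted p = 0.00551). Ret, for the kinase subunit, had 8.07, 8.08 and 8.52 FPKM in TSPAN8-high and 2.03, 4.01 and 3.97 FPKM in TSPAN8-low (1.12, SE 0.19, adjusted p = 0.00836). For both receptor genes the fractions did not overlap, and the libraries of TSPAN8-high were close together. Both calls were held without any single library and lost without replicate 2 of all groups (adjusted p = 0.0841 for each) and without a filter (0.0573 for Gfra1 and 0.0638 for Ret), and that of Ret also without replicate 3 of all groups (0.0585). Fgf9, for a secreted FGF, had 0.79 (adjusted p = 0.0241, lost without replicate 1 or 2 of either fraction, adjusted p up to 0.0879).

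Genes for another ligand and another receptor of the GDNF family had negative estimates. Nrtn, for the ligand neurturin, averaged 6.55 ± 1.45 FPKM in TSPAN8-high and 10.7 ± 0.133 FPKM in TSPAN8-low (log2 fold change -0.65, adjusted p = 0.0518), and Gfra3, for the artemin receptor, 5.60 ± 1.96 and 11.2 ± 3.19 FPKM (-0.91, adjusted p = 0.0768). With the replicate block both passed (adjusted p = 0.00816 and 0.00310), and Nrtn passed also under the 3 other scalings (0.0315 to 0.0346). Gdnf itself was at 0.0305 ± 0.0420 FPKM in TSPAN8-high and 0.0250 ± 0.0233 FPKM in TSPAN8-low, and Fgf2 at 0.0602 ± 0.104 and 0.284 ± 0.223 FPKM. Of Fgfr1, Fgfr2, Fgfr3 and Fgfr4, for the FGF receptors, Fgfr1 alone was tested (0.19, adjusted p = 0.477). Gfra3 was singled out after its value had been seen.

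Of 25 tested genes for transducers of the signal, 2 rose and 0 fell (3 and 0 with the block), with a median log2 fold change of 0.03. The shares over all tested genes were 3.41% and 2.15% (11.8% and 7.34% with the block). The Src-family kinase gene Fyn had 25.1, 26.5 and 29.9 FPKM in TSPAN8-high and 12.4, 15.6 and 15.1 FPKM in TSPAN8-low (log2 fold change 0.88, SE 0.15, adjusted p = 0.00885; 0.119 without replicate 2 and 0.0759 without replicate 3 of all groups). Pik3ca, for a catalytic subunit of PI3 kinase, had 0.62 (adjusted p = 0.0394), lost without any of 7 libraries (up to 0.116) and under the 3 other scalings. The adaptor gene Shc1 had 0.47 (adjusted p = 0.106, 0.0164 with the block) and Akt1 -0.46 (0.179). The RAS, RAF, MEK and ERK genes did not pass in either fit.

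Among other targets reported for GDNF or ETV5, 9 of 10 tested rose and 0 fell, against 3.41% and 2.15% of all tested genes, with a median of 1.21. Hrh1, of the same list but under the level for testing, went the other way without overlap. It averaged 0.306 ± 0.053 FPKM in TSPAN8-high and 0.695 ± 0.127 FPKM in TSPAN8-low. This list was put together with earlier results of these data known, and it includes Tspan8, the basis of the sort, and Id4, the basis of the reporter. The forkhead gene Foxc2 had a log2 fold change of 1.32 (adjusted p = 0.00143) and T, for brachyury, 1.23 (adjusted p = 0.00246), and both calls were held in each setting in which the gene was tested. T was not tested with a minimum of 5 FPKM or without replicate 2 of all groups. It averaged 2.29 ± 0.25 FPKM in TSPAN8-high and was at most 0.518 FPKM in TSPAN8-low. T thus met the filter of 1 FPKM mainly through the fraction in which it was higher. The same holds for Eomes, another of the 9, singled out after its values had been seen (at most 0.97 FPKM in TSPAN8-low). For T and Eomes the size of the difference therefore rests on TSPAN8-low values under the level for testing. Of 6 tested ERK feedback genes 3 rose and 0 fell, against the same shares of all tested genes. With the block 5 rose and 0 fell, against 11.8% and 7.34%. The 3 that rose without the block were Dusp6 (1.31, adjusted p = 0.00495), the phosphatase gene for ERK, and 2 Sprouty genes. The Dusp6 call was held without any single library and lost without a filter (0.0526) and without replicate 2 of all groups (0.0841). Spry1 had 0.95 (adjusted p = 0.0201), lost without any of 3 libraries (up to 0.0733), and Spry4 had 0.91 (adjusted p = 0.0262), lost without any of 4 (up to 0.0903). Dusp5 had 0.63 (adjusted p = 0.0579).

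**Figure D3:**
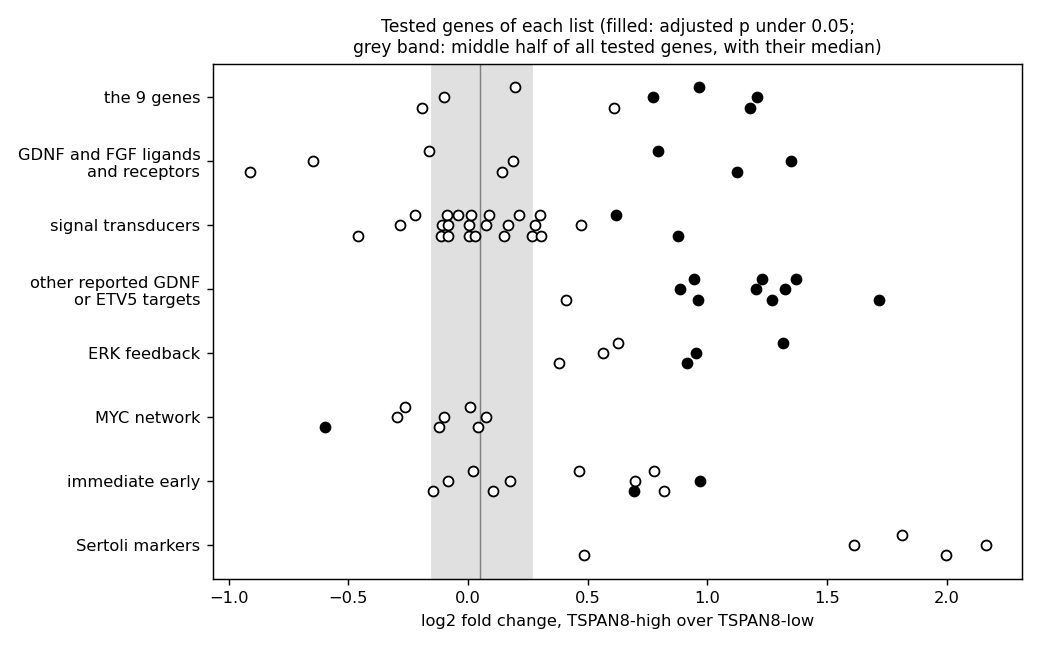
Log2 fold change of each tested gene, TSPAN8-high over TSPAN8-low, by list (filled, adjusted p under 0.05; vertical jitter has no meaning). The grey band from -0.15 to 0.27 runs from the lower to the upper quartile of all tested genes. Of the 8 tested members 4 are filled, 23 of the 25 signal transducers are open, and the 5 Sertoli markers reach 2.16 with no filled point.

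Over the 9 libraries the non-member genes whose log2(FPKM + 1), centred on its mean, differed least from that of Etv5 were Dusp6 (root mean square difference 0.109), Upb1, for an enzyme of pyrimidine breakdown (0.115), Nanos2, for an RNA-binding translational repressor (0.117), Cnn2, for a calponin (0.117), and Scmh1, for a Polycomb-group protein (0.125). Among the members Egr2 was nearest to Etv5 (0.133), followed by Cxcr4 (0.241), Etv4 (0.281) and Bcl6b (0.283), with Egr4, Mycn and Pou3f1 farther off (0.521, 0.552 and 0.594). Nearest to Cxcr4 were Arg2, for a mitochondrial arginase (0.120), Olah, for a thioesterase (0.133), Mb21d2 (0.135), Mark1, for a microtubule-affinity regulating kinase (0.149), and C920006O11Rik (0.149). All these genes share the same 9 libraries, so the distances describe likeness of pattern only.

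**Figure D4:**
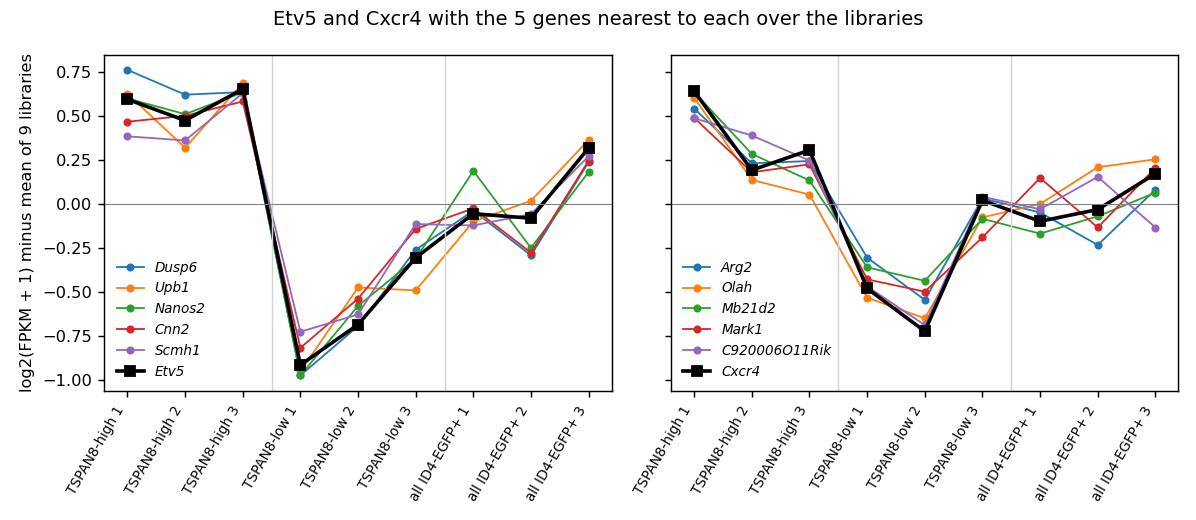
Log2(FPKM + 1) minus the gene's mean over the 9 libraries, for Etv5 (left, black) and Cxcr4 (right, black) with the 5 nearest genes of each; lines join the values of 1 gene and the order of libraries within a group has no meaning. Each gene has its highest library in TSPAN8-high and its lowest in TSPAN8-low replicate 1 or 2, and Cxcr4 in TSPAN8-low replicate 3 lies near its all ID4-EGFP+ values.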

How the data were processed

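SMART-Seq v4 cDNA and Nextera XT libraries of 9 samples were sequenced paired-end, per the labels' protocols; the kit does not mark strand. The authors deposited Cufflinks FPKM per library, the values used here, and a table of normalized values on a linear scale, a signal that served as 1 alternative scaling. The submitters' processing notes name build mm9 with Cufflinks, Bowtie2 2.2.3.0, TopHat2 2.0.12 and FastQC; no source used here gives the annotation. Columns were matched to samples by population letters and sample number.

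Entries sharing a symbol (262 symbols, 768 entries) were left out. The 11142 genes that reached 1 FPKM in 3 or more libraries were fitted with limma 3.58.1 (R 4.3.3; trended eBayes, two-sided tests) on log2(FPKM + 1), a scale that understates changes of low genes, in 1 fit over 9 libraries with 3 groups. On simulated data for TSPAN8-high against TSPAN8-low over 11142 genes, 71 of 100 genes changed by 1 and 97 of 100 changed by 2 on the log2 scale were recovered. Of 176 genes called there, 8 were false. The simulated noise was independent between libraries, and only genes with a mean log2(FPKM + 1) over 2 were changed. The recovery therefore does not cover lower genes or libraries linked by replicate number. Libraries share replicate numbers across groups. All 9 pairs of same-numbered libraries had positively correlated deviations from the group mean (r of 0.26 to 0.48). The 18 other pairs had r of -0.46 to 0.28. Deviations within a group cancel out for each gene, so the other pairs are no independent contrast. The number was taken, from this pattern, to pair samples, and a second fit had it as a block. Adjusted p-values with the block rest on that reading of the same data. Alternatives were other pseudocounts, filters, scalings, variance models and left-out libraries. The members and gene lists were chosen with earlier results of these data known. Non-members named are up to 4 per list with the smallest p and the 5 nearest to Etv5 and Cxcr4, besides relatives of members, defining markers and those said to be chosen later. Python 3.11.15 and matplotlib 3.10.9 served for tables and plots.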

Additional observations from a re-analysis of the deposited data

How the results depend on the processing

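Over the alternatives that kept every library of the groups compared, 228 of 237 member fold changes kept their direction and side of the threshold, 2 passed newly (with the replicate block) and 7 no longer passed; 0 changed sign. Without a library or a replicate number 262 of 288 did so, 15 no longer passed and 11 changed sign, all of them of members that had not passed. Only the 4 fold changes that had passed, those of Etv5, Egr2, Bcl6b and Cxcr4 between the fractions, could lose a call. All the losses were theirs, most of them of Cxcr4. The shares over all fold changes therefore do not measure how stable these 4 calls were. The number of members called between the fractions was 2 without a filter on low values and 0 to 4 with libraries left out (0 without replicate 2 of all groups), against 4; with the replicate block 1 member, against 0, passed between TSPAN8-high and all ID4-EGFP+. The log2 fold changes that changed sign with libraries left out ran from -0.0105 to 0.44 for Egr4 between the fractions, from -0.38 to 0.0158 for Egr4, -0.085 to 0.15 for Etv4 and -0.13 to 0.0221 for Pou3f1 between TSPAN8-high and all ID4-EGFP+, and from -0.30 to 0.0104 for Mycn between TSPAN8-low and all ID4-EGFP+. Max between the fractions ran from -0.52 to 0.0012.

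Of all tested genes 619 were called between the fractions, 2131 with the block, 150 without a filter, 360 with a minimum of 5 FPKM and 30 to 639 with libraries left out (of single libraries, 180 without replicate 2 and 283 without replicate 3 of TSPAN8-high, 366 without replicate 1 and 291 without replicate 2 of TSPAN8-low). Their split into higher and lower was 380 to 239, and it was 250 to 300 under quantile normalization, 255 to 360 under a common median and 223 to 310 in the normalized values the authors deposited. Between TSPAN8-high and all ID4-EGFP+ 16 were called, 344 with the block, 3 without a filter, 7 with the normalized values, 27 with the 2 groups alone and 0 to 112 with libraries left out. Between TSPAN8-low and all ID4-EGFP+ 0 were called (910 at an unadjusted p under 0.05), 5 with the block, 1 without a filter and 0 to 1 with libraries left out. The cause of these shifts was not tested. Depth per library is not known in absolute terms, so no counting interval can be given.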
